A study of Homo sapiens with 6 samples.

Results

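The genes described here are the nuclear genes that encode the subunits and dedicated assembly factors of the mitochondrial oxidative phosphorylation complexes. They were taken by symbol, as all rows that start with NDUF, SDH followed by A to D, UQCR, COX followed by a digit, or ATP5, without antisense or pseudogene rows. The symbol pattern met 110 of the 14788 rows of the expression table, 5 of which were pseudogenes and 1 an antisense transcript, so that 104 rows remained. Of these 104, 2 (COX10-DT and NDUFA6-DT) are divergent noncoding transcripts named after a neighbour, and 102 are coding members. The coding members comprised 37 subunits and 8 assembly factors of complex I, 4 subunits and 4 assembly factors of complex II, 8 subunits of complex III, 12 subunits and 10 assembly factors of complex IV, and 17 subunits of complex V. The remaining 2, UQCRHL and ATP5IF1, are a copy of the complex III subunit gene UQCRH and the inhibitor of ATP synthase. In all, 100 of the 102 coding members passed the filter on low values (a log2 CPM of at least 0 in at least 2 libraries), and NDUFA7 and COX7A1 did not.

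The study profiled polyA RNA from the human cell line CAL51, derived from a triple-negative breast cancer, in 6 bulk RNA sequencing libraries. The 3 groups, of 2 libraries each, were control cells (CAL51-Ctrl) and CAL51 cells made knockout for the DNA exonuclease gene TREX1 with either of 2 guide RNAs delivered by lentiviral CRISPR v2 (CAL51-TREX1 KO-1 and CAL51-TREX1 KO-2). No treatment, time or other allele is named for any group, and the sample labels do not say whether the control carried a guide or whether the knockouts are clones or pools. TREX1 itself was not analysed here, so the knockout labels were not checked against the targeted gene. Nothing ties the replicates to separate cultures, so p-values reflect the library-to-library spread alone, part or all of which may be technical.

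Oxidative phosphorylation couples electron flow to ATP synthesis across the inner mitochondrial membrane. Complex I (NADH dehydrogenase) and complex II (succinate dehydrogenase) pass electrons to ubiquinone, complex III (the cytochrome bc1 complex) hands them on to cytochrome c, complex IV (cytochrome c oxidase) passes them to oxygen, and complex V (ATP synthase) uses the resulting proton gradient. All but complex II combine subunits from the nuclear and the mitochondrial genome, so their nuclear genes must be expressed alongside a separate set made inside the organelle, and assembly factors build the complexes without being part of the final enzyme. Many of the nuclear genes carry binding motifs for NRF1, for GABP of the ETS family or for YY1 in their promoters.

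Promoter sequence is shown first for 5 called members, chosen after their values were seen and not as a sample of the called members. Of the called members with a promoter entry, NDUFA3 and UQCRC1 alone held the NRF1 motif. Each sequence is the 250 bases before the RefSeq transcription start (GRCh38.p14), 5′ to 3′ on the strand of the gene. The NDUFAF8 and UQCRC1 windows lie inside the GENCODE v29 gene spans given below, and the COX6B1 window partly does. The annotations thus differ on where these genes start, and the bases before the GENCODE starts were not searched. NDUFA3 (chr19:54102605-54102854, plus strand) and COX5B (chr2:97645812-97646061, plus strand) rose in the knockouts. UQCRC1 (chr3:48609647-48609896, minus strand) and COX6B1 (chr19:35648073-35648322, plus strand) fell, and NDUFAF8 (chr17:81239664-81239913, plus strand) had the highest fold change of all members. Capitals mark a match to the 10-letter NRF1 motif in NDUFA3 and UQCRC1 and to the ETS motif CCGGAAG, on either strand, in COX5B and COX6B1, while the NDUFAF8 window held none of the 3 motifs searched.
NDUFA3: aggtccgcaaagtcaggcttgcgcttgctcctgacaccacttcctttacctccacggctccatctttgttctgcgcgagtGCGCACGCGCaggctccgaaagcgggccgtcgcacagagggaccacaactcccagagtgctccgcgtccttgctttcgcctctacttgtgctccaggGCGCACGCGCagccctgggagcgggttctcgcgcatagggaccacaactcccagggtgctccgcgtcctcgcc
UQCRC1: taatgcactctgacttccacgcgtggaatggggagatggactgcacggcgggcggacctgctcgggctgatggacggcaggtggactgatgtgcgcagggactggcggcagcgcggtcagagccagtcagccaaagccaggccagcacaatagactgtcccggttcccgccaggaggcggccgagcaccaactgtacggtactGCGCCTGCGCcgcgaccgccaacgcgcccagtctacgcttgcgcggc
COX5B: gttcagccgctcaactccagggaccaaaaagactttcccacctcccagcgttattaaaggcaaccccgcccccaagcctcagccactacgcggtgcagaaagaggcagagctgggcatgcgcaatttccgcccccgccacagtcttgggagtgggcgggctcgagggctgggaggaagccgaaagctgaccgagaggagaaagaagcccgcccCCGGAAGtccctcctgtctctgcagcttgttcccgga
COX6B1: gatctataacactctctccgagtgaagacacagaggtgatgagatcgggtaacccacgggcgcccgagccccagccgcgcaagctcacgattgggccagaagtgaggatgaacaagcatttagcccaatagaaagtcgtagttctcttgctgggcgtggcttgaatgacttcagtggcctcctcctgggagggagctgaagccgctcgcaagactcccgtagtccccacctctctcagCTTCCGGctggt
NDUFAF8: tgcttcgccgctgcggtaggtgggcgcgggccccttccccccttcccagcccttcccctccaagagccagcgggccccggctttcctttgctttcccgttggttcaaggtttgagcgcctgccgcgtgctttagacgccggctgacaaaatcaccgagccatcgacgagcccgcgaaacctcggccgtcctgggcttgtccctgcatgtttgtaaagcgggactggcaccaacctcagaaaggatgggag

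Across the 300-base windows of the RefSeq promoter table (250 bases before the start and 50 after), 85 of the 102 coding members had an entry. The NRF1 motif, read on both strands, was found in 24.7% of these members, in 11.8% of the promoters of the genes tested and in 6.28% of the 27305 promoters of the table. CCGGAAG was found in 30.6%, 19.1% and 10.7% of the same sets, and the YY1 motif AAGATGGCG in 10.6%, 3.91% and 1.85%. Matches could overlap, since the end of the ETS motif and the start of the YY1 motif share AAG and the end of the YY1 motif meets the start of the NRF1 motif in GCG. In all, 54.1% of the members held at least 1 of them, against 31.0% of the genes tested. Matches were found among members of both directions. Among the 9 risen members with an entry, 1 held the NRF1 motif and 4 the ETS motif, and among the 7 fallen members 1 held the NRF1 motif and 2 the ETS motif. The median log2 fold change was -0.02 for the 21 tested members with an NRF1 motif and 0.00 for the 63 without. A match is a description of these letters and not evidence of binding.

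Nuclear OXPHOS genes did not move together in the knockout libraries. Against control, with both guides averaged, 12 of the 100 tested members rose and 8 fell (limma, p-values adjusted by Benjamini and Hochberg's method across the 13765 genes of the fit, called below 0.05), where 29.6% of all genes tested passed, 14.6% higher and 14.9% lower. The share of members called, 20%, was thus below the background. The median log2 fold change of the members was -0.01, as it was for all genes tested, and the median size of the change was 0.10 on the log2 scale for the members and 0.19 for all genes. A log2 change of 0.5 or more was fitted for 3 of the 100 members, against 12.9% of all genes. For 85 of the 100 members the 95% confidence interval of the fold change lay within 0.5 on the log2 scale of no change, against 56.9% of all genes. That bound is wide beside the members' median change of 0.10. The median level was also higher for the members, at 5.93 log2 CPM against 5.22 for all genes tested with a length. The 4 knockout libraries lay on the same side of both control libraries for 40 members, 20 above and 20 below, beside a background of 46.3% (22.3% above and 24% below). All 20 called members were among these 40, but both are read from the same values, so this is no separate support for the calls.

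The split of 12 higher and 8 lower depended on scaling and on single libraries. With the library medians set equal it was 14 and 7, with scaling to the read totals 9 and 11, and with limma voom on the recovered reads 9 and 14 (34.1% of all genes called), the latter 2 being alternatives chosen after the data were seen. Leaving out control replicate 1 left 3 calls (9.34% of all genes), control replicate 2 left 7 (11%), KO-1 replicate 1 left 8 (18.7%) and KO-1 replicate 2 left 11 (18.6%), while 34 members were called without KO-2 replicate 1 (42.6%) and 40 without KO-2 replicate 2 (44.1%). Of the 20 called members, only NDUFAF8 and COX6B1 stayed past the threshold in all 6 of these fits. Setting the library medians equal also turned the sign of the small group medians given below for complexes I and V and the assembly factors, and quantile normalization did so for complex I and the assembly factors. These medians ranged from -0.05 to 0.03, -0.05 to 0.03 and -0.06 to 0.02 over the scalings run.

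**Figure D1:**
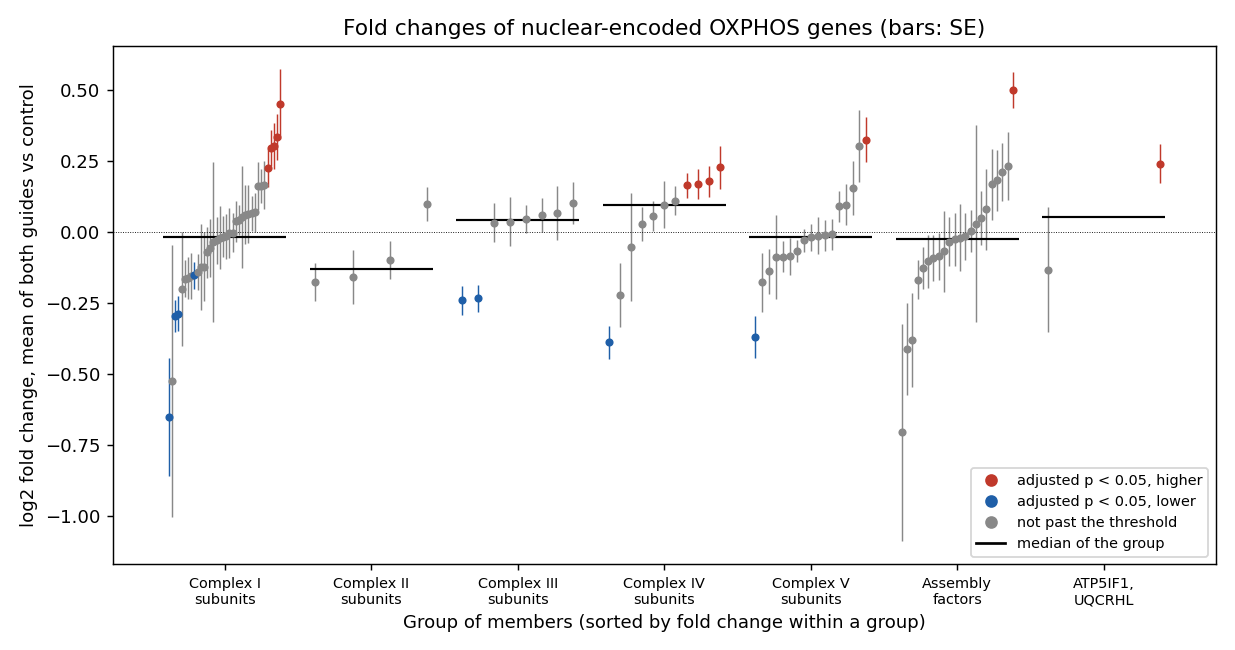
Fitted log2 fold change of each tested coding member, mean of both guides against control, by complex. Points are genes sorted within a group, bars are the standard error from limma, horizontal lines are group medians, and red and blue mark the 12 members that rose and the 8 that fell at an adjusted p below 0.05. Both directions appear among the subunits of complexes I, IV and V, and NDUFAF8 is the called assembly factor.

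Complex I, the largest of the complexes, had called members in both directions. Among its 36 tested subunits were 5 risen and 4 fallen ones (25%, beside 29.6% of all genes tested), around a median log2 change of -0.02. Of the 7 core subunits, which carry the flavin and the iron-sulfur clusters, 0 rose and 2 fell (28.6%, median -0.14). Of the 29 tested accessory subunits, which surround them, 5 rose and 2 fell (24.1%, median -0.00). Both shares were near that of all genes (14.6% higher, 14.9% lower), and 7 core subunits are few. No difference between core and accessory subunits was tested.

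NDUFS1, the largest core subunit, which holds several iron-sulfur clusters, fell. Its log2 CPM was 7.78 and 7.75 in the control libraries, 7.53 and 7.58 in KO-1, and 7.67 and 7.65 in KO-2. The 4 knockout libraries were all below both controls, with KO-2 between KO-1 and control. The log2 fold change was -0.15 ± 0.05 (SE; limma adjusted p = 0.031), which did not pass with library medians set equal (0.12). NDUFS3 and NDUFS7, further core subunits, had fitted changes of -0.14 and -0.12, neither past the threshold. NDUFV2 is also a core subunit, but had between 5 and 39 reads per library and a fold change of -0.52 ± 0.48 (SE), which these counts cannot tell from no change.

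Among accessory subunits NDUFS6 (chr5:1801400-1816605), a zinc-binding subunit of the NADH-oxidising module, had the highest fold change. Its log2 CPM was 5.44 and 5.72 in control, 5.95 and 5.79 in KO-1, and 6.42 and 5.95 in KO-2. The groups of control and knockout libraries did not overlap, but the margin was small and KO-2 replicate 1 stood above all others. The log2 fold change was 0.45 ± 0.12 (SE; limma adjusted p = 0.018), with a 95% confidence interval from 0.18 to 0.72. NDUFA3, NDUFB3, NDUFS5 and NDUFB7, small accessory subunits of the membrane arm, rose by 0.33, 0.30, 0.29 and 0.22 on the log2 scale, with limma adjusted p-values of 0.011, 0.018, 0.0053 and 0.028. NDUFA3 lay between 5.25 and 5.35 log2 CPM in the 4 knockout libraries and at 4.87 and 5.02 in control. NDUFS5, among the most abundant complex I messages per length at 262 CPM per kilobase of mRNA, lay at 6.95 and 6.97 in control and between 7.17 and 7.35 in the knockouts.

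NDUFB8 (chr10:100523740-100530000), an accessory subunit of the membrane arm, had the lowest fold change of the called members. Its log2 CPM was 3.83 and 3.44 in control, 2.97 and 2.998 in KO-1, and 2.59 and 3.38 in KO-2. KO-2 replicate 2 came close to the lower control library, so the groups were barely apart. The log2 fold change was -0.65 ± 0.21 (SE; limma adjusted p = 0.035), on 77 to 329 reads per library. In the GENCODE v29 annotation 65.4% of the exon bases of NDUFB8 are shared on the same strand with the gene model AL133352.1, so its reads cannot be assigned to NDUFB8 with certainty. NDUFA10, an accessory subunit with no such overlap, fell by 0.29 on the log2 scale (SE 0.06, limma adjusted p = 0.006), from 7.08 and 7.01 log2 CPM in control to between 6.56 and 6.90 in the knockouts.

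Complex II gave no call among its 4 subunits in the mean of both guides, at a median log2 fold change of -0.13. Beside 29.6% of all genes tested, 4 subunits are too few to read this as a trait of the complex. SDHC, which anchors the enzyme in the membrane, had the highest value, with log2 CPM of 6.35 and 6.36 in control, 6.51 and 6.55 in KO-1, and 6.32 and 6.44 in KO-2. KO-1 lay above the controls and KO-2 on both sides of them, and the mean change of 0.10 ± 0.06 (SE) did not pass (limma adjusted p = 0.26). SDHB, the iron-sulfur subunit (chr1:17018722-17054170), had the lowest value, with log2 CPM of 6.36 and 6.31 in control, 6.14 and 5.98 in KO-1, and 6.23 and 6.28 in KO-2. All 4 knockout libraries were below both controls, KO-2 by a small margin. The mean change was -0.17 ± 0.07 (SE; limma adjusted p = 0.071), which passed with scaling to the read totals (0.036) and with limma voom (0.024). Against control KO-1 alone was called (-0.27 ± 0.08, limma adjusted p = 0.022). SDHA, the flavin subunit, and SDHD, the other membrane anchor, had fitted changes of -0.16 and -0.10, neither past the threshold.

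In complex III the 2 core proteins fell and the other 6 subunits had fitted changes between 0.03 and 0.10, none past the threshold. That is 25% of its 8 subunits, beside 29.6% of all genes tested. UQCRC1 (chr3:48599002-48610976) and UQCRC2 (chr16:21952660-21983660) are the large matrix-facing core proteins. UQCRC1 was at 8.15 and 8.10 log2 CPM in control, 7.77 and 7.75 in KO-1, and 8.08 and 7.95 in KO-2. Every knockout library was below both controls, with KO-2 replicate 1 only slightly so. The log2 fold change was -0.24 ± 0.05 (SE; limma adjusted p = 0.0053). UQCRC2 was at 7.98 and 7.94 in control, 7.64 and 7.72 in KO-1, and 7.77 in each KO-2 library. Here the groups were well apart, and the log2 fold change was -0.23 ± 0.05 (SE; limma adjusted p = 0.0045). UQCRFS1, the Rieske iron-sulfur protein of the catalytic centre, lay between 7.24 and 7.32 log2 CPM in all 6 libraries, with a fold change of 0.04 (95% confidence interval -0.06 to 0.15). UQCRQ, a small accessory subunit, had the highest value of the complex, at 6.07 and 6.13 log2 CPM in control, 6.15 and 6.18 in KO-1, and 6.36 and 6.13 in KO-2. Its groups overlapped, and the change of 0.10 ± 0.07 (SE) did not pass (limma adjusted p = 0.34).

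Complex IV had 4 risen subunits and 1 fallen subunit of 11 tested, with the highest median of the complexes at 0.10. That is 45.5% called, in a small group, beside 29.6% of all genes tested. COX6C (chr8:99873200-99894062), COX5B, NDUFA4 and COX4I1 rose by 0.23, 0.18, 0.17 and 0.16 on the log2 scale, with limma adjusted p-values of 0.043, 0.035, 0.035 and 0.018. COX4I1 and COX5B are regulatory nuclear subunits that bind the catalytic core, and NDUFA4 is named for complex I but is a subunit of complex IV. COX6C was at 6.37 and 6.45 log2 CPM in control, 6.58 and 6.54 in KO-1, and 6.85 and 6.58 in KO-2. The knockout libraries were above both controls, with KO-2 replicate 1 the highest. COX4I1 varied little within groups, at 7.92 and 7.93 in control, 8.09 and 8.05 in KO-1, and 8.11 and 8.10 in KO-2. With scaling to the read totals COX4I1 was the only risen subunit of the complex past the threshold (limma adjusted p = 0.04), COX6C, COX5B and NDUFA4 being at 0.066, 0.067 and 0.072. After quantile normalization COX4I1 lost its call (limma adjusted p = 0.09), and COX6C, COX5B and NDUFA4 kept theirs at 0.04, 0.043 and 0.044.

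COX6B1 (chr19:35648223-35658861), the subunit that joins the monomers of the cytochrome c oxidase dimer on the intermembrane side, moved the other way. Its log2 CPM was 6.73 and 6.80 in control, 6.31 and 6.27 in KO-1, and 6.43 and 6.49 in KO-2. The groups were well apart, with KO-1 lowest. The log2 fold change was -0.39 ± 0.06 (SE; limma adjusted p = 0.00083), with a 95% confidence interval from -0.52 to -0.26, and the level fell by 23.6%. The gene has 7 pseudogenes named after it in the annotation, and how the deposited counts treated reads shared with them is not stated with the data.

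Complex V had 1 risen and 1 fallen subunit of 17 (11.8%, beside 29.6% of all genes tested). ATP5MK (chr10:103389041-103396492), a small subunit of the membrane domain, was at 5.93 and 5.91 log2 CPM in control, 6.24 and 6.18 in KO-1, and 6.42 and 6.15 in KO-2. All knockout libraries were above both controls, and the log2 fold change was 0.32 ± 0.08 (SE; limma adjusted p = 0.011). ATP5MC1 (chr17:48892765-48895871), 1 of the 3 genes that encode the same rotor ring protein, was at 6.42 and 6.49 in control, 5.90 and 6.12 in KO-1, and 6.13 and 6.19 in KO-2. Its groups did not overlap, and the log2 fold change was -0.37 ± 0.07 (SE; limma adjusted p = 0.0036). The other rotor ring genes, ATP5MC2 and ATP5MC3, had fitted changes of 0.09 and -0.09, neither past the threshold.

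The catalytic F1 head showed no call in any of its 5 subunits, too few to set apart from the 29.6% of all genes tested. ATP5F1B, the catalytic beta subunit and the most abundant message per length among the members at 569 CPM per kilobase, lay between 9.95 and 10.06 log2 CPM in all 6 libraries. Its fold change was -0.03 (95% confidence interval -0.12 to 0.06). ATP5F1A, the alpha subunit, changed by -0.07 (95% confidence interval -0.15 to 0.02). ATP5F1E, the epsilon subunit, went the other way, at 6.55 and 6.56 log2 CPM in control, 6.70 and 6.69 in KO-1, and 7.32 and 6.69 in KO-2. All its knockout libraries were above both controls, KO-2 replicate 1 by far the most, and the fold change was 0.30 (95% confidence interval 0.02 to 0.58, limma adjusted p = 0.097). ATP5IF1, the inhibitor that binds this head, rose by 0.24 ± 0.07 (SE; limma adjusted p = 0.023), from 6.48 and 6.54 log2 CPM in control to 6.64 and 6.60 in KO-1 and 6.99 and 6.77 in KO-2.

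**Figure D2:**
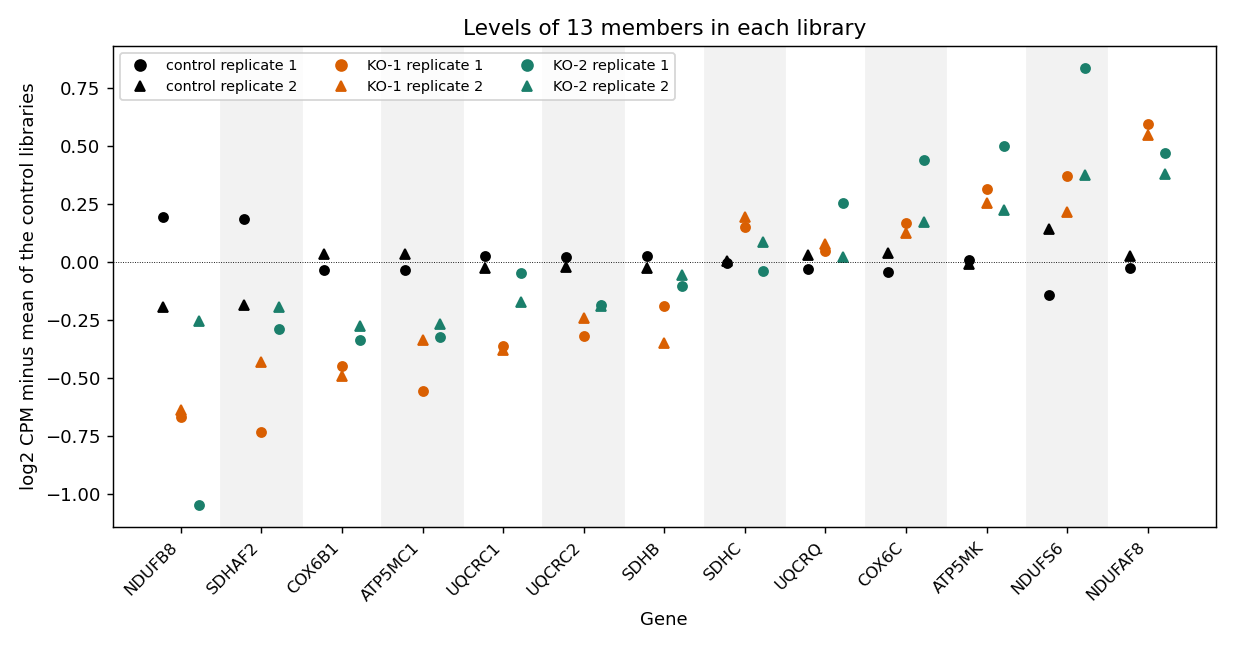
Log2 CPM of 13 members in each library, minus the mean of the 2 control libraries. Circles are replicate 1 and triangles replicate 2, in black for control, orange for KO-1 and green for KO-2. NDUFAF8 and COX6B1 show knockout libraries apart from both controls, while KO-2 replicate 1 stands away from KO-2 replicate 2 for NDUFB8, NDUFS6 and ATP5MK.

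Of 22 assembly factors 1 rose and 0 fell in the mean of both guides (4.55%, beside 29.6% of all genes tested, median -0.02). The median half-width of their 95% confidence intervals was 0.22, against 0.16 for the subunits and 0.21 for all genes tested. NDUFAF8 (chr17:81239239-81241281), the partner of NDUFAF5 in complex I assembly, was the risen factor and the member with the smallest p. Its log2 CPM was 5.81 and 5.87 in control, 6.44 and 6.39 in KO-1, and 6.31 and 6.22 in KO-2. The groups were far apart, with KO-1 above KO-2. The log2 fold change was 0.50 ± 0.06 (SE; limma adjusted p = 0.00031), with a 95% confidence interval from 0.36 to 0.64 and a level 41.3% higher. The other 7 complex I factors, NDUFAF1 to NDUFAF7, had fitted changes from -0.10 to 0.18, none past the threshold.

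SDHAF2, which attaches the flavin to SDHA, had log2 CPM of 3.45 and 3.08 in control, 2.53 and 2.83 in KO-1, and 2.97 and 3.07 in KO-2. The knockout libraries were below both controls, KO-2 replicate 2 only just. The mean change of -0.41 ± 0.16 (SE) did not pass (limma adjusted p = 0.078), and KO-1 alone was called at -0.58 ± 0.19 (limma adjusted p = 0.036). It had 94 to 252 reads per library. COX7A2L, a factor that joins complexes III and IV into supercomplexes, was also called in KO-1 alone, at -0.28 ± 0.09 (SE; limma adjusted p = 0.032), with 0.02 in KO-2. Of the 10 complex IV factors none was called in the mean of both guides, and COX20, the lowest at -0.70 ± 0.38 (SE), had 8 to 36 reads per library. The 2 divergent transcripts, COX10-DT and NDUFA6-DT, had fitted changes of -0.09 and -0.45 and were not called (limma adjusted p = 0.63 and 0.41).

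Taken 1 guide at a time, 7 members rose and 10 fell in KO-1 (17 of 100, background 29.7%, with 14.6% higher and 15.1% lower), and 10 rose and 3 fell in KO-2 (13 of 100, background 16.9%, with 8.73% higher and 8.19% lower). The direction split moved with scaling: after equalising library medians it was 11 up and 7 down in KO-1, and 3 and 12 with scaling to the read totals. In KO-2 the same scalings gave 13 and 1, and 7 and 5, and, after quantile normalization, 9 and 5. In all, 21 members were called with at least 1 guide, 9 with both, 8 with KO-1 alone and 4 with KO-2 alone, while NDUFB8 and COX5B passed in the mean of both guides only. The 2 comparisons share their control libraries, so a like direction in both is partly built in, and the values are given side by side. For NDUFAF8 they were 0.57 in KO-1 and 0.42 in KO-2, for COX6B1 -0.47 and -0.31, for ATP5MC1 -0.45 and -0.29, for NDUFS5 0.29 and 0.30, for UQCRC1 -0.37 and -0.11, and for NDUFS6 0.29 and 0.61.

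The difference between the guides was tested directly. In KO-2 against KO-1, 0 of 100 members passed (limma, adjusted over all genes tested, background 1.14%), and 14 had an unadjusted p below 0.05, all of them higher in KO-2, beside 17.3% of all genes tested (2381 genes, 1181 of them higher). A call with 1 guide alone is therefore not shown to differ from the other guide. The members' median in KO-2 against KO-1 was 0.05, and it was 0.03 without KO-2 replicate 1 and 0.06 without KO-2 replicate 2. The part of KO-2 replicate 1, which stood apart from its pair as given below, in the 14 was not tested. The authors' deposited table gave 18 members in KO-1 (7 higher, 11 lower, background 29%), 14 in KO-2 (11 higher, 3 lower, background 16.7%) and 1 in KO-2 against KO-1 (background 1.49%). That member was UQCRC1, at a log2 fold change of 0.26 and a false discovery rate of 0.049 in the authors' deposited table, against an adjusted p of 0.063 from limma here.

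**Figure D3:**
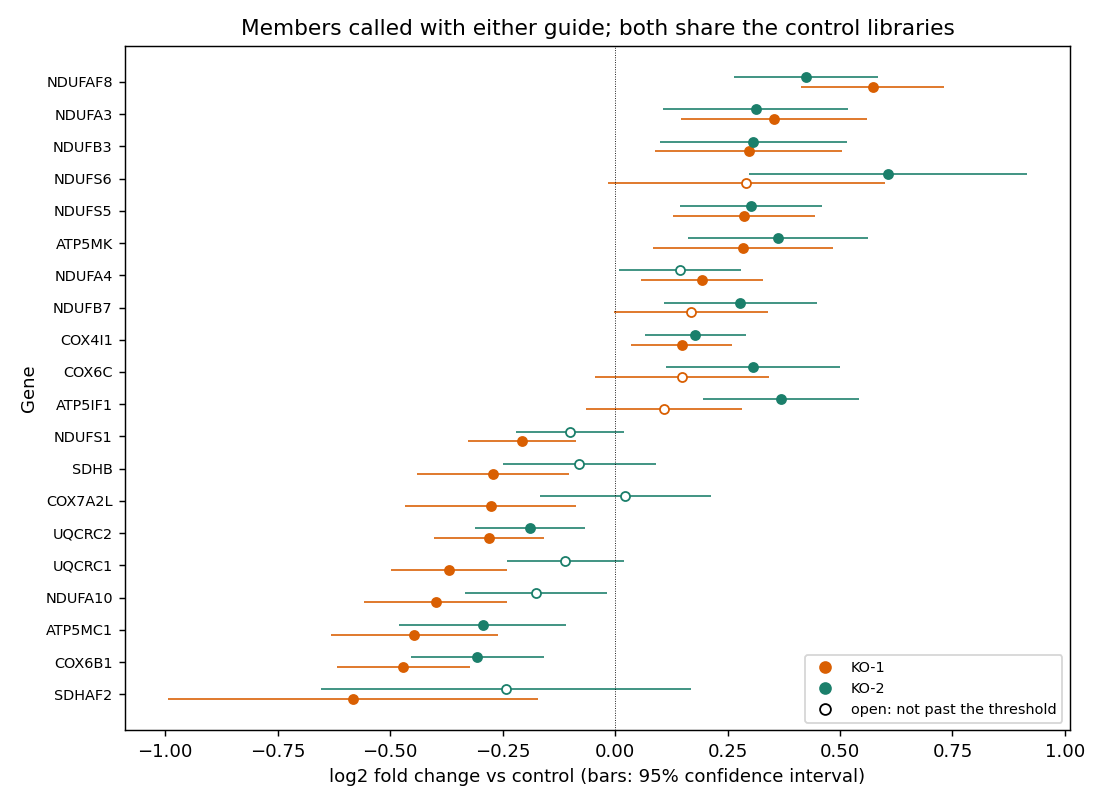
Log2 fold change against control for 20 of the 21 members called with at least 1 guide, in KO-1 (orange) and KO-2 (green). Bars are 95% confidence intervals from limma, filled points passed an adjusted p below 0.05 and open points did not, and both guides share the same control libraries. The intervals of the guides overlap for all shown but UQCRC1, whose KO-1 interval ends at -0.24, where the KO-2 interval starts.

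The KO-2 libraries were less alike than the other pairs, for these genes as for all. The SD over members of the difference between replicates was lowest between the controls (0.12), higher in KO-1 (0.22) and highest in KO-2 (0.32), against 0.24, 0.28 and 0.39 over all genes tested. KO-2 replicate 1 was the shallowest library, with 13222933 reads where the others had 16802681 to 25785055, and had 61 genes at 0 reads where the others had 5 to 16. Between the KO-2 replicates 24 of the 100 members differed by 0.3 or more on the log2 scale, 13 higher and 11 lower in replicate 1, near the 25.9% of all genes tested that did (3560 of 13765, 1352 higher and 2208 lower). NDUFB1, an accessory subunit of complex I, was at 5.49 log2 CPM in KO-2 replicate 1 and between 4.62 and 4.83 in the other 5 libraries. ATP5F1E, the epsilon subunit of ATP synthase, was at 7.32 against 6.55 to 6.70. COX6A1, a complex IV subunit, was at 4.19 against 4.77 to 5.11, and NDUFA11, a complex I subunit, at 2.73 against 3.44 to 3.63. These 4 genes were chosen after their values were seen. With KO-2 replicate 2 left out, so that KO-2 replicate 1 alone stands for that guide and is assumed to vary like the other groups, 31 members passed in KO-2 against KO-1 (25 higher, 6 lower, background 23%). With KO-2 replicate 1 left out, 1 member passed (background 5.35%). What sets this library apart was not tested.

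**Figure D4:**
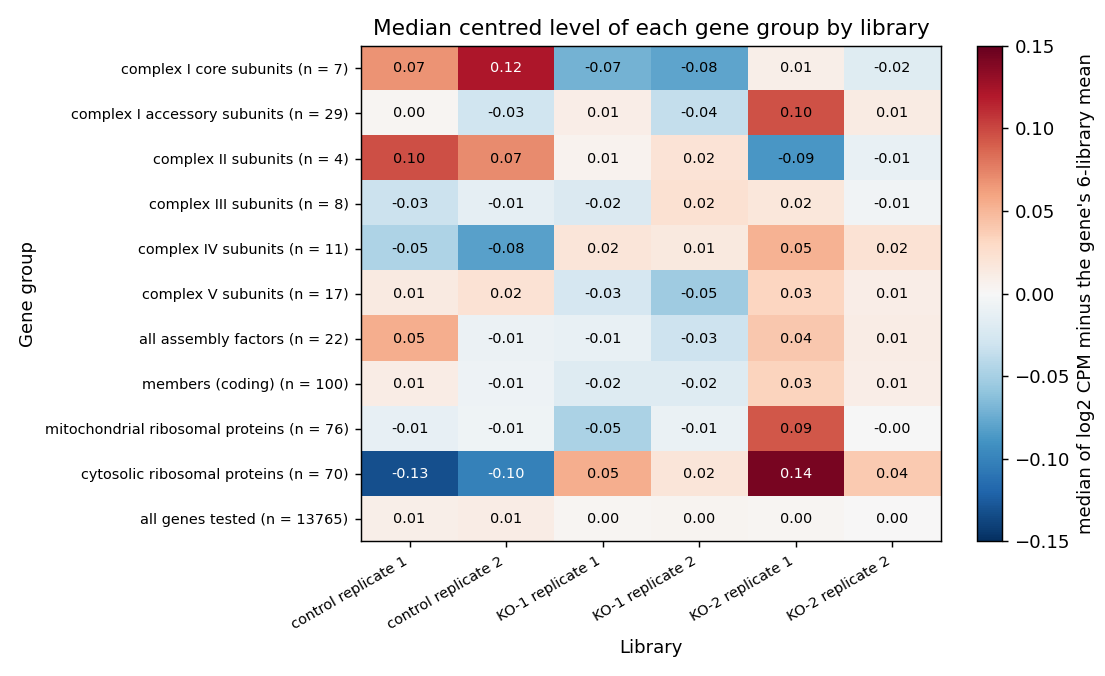
Median centred level of each gene group in each library, as log2 CPM minus the mean of the gene's 6 libraries. Rows are gene groups with the number of genes, columns are the 6 libraries, red is above and blue below the gene's mean. The 100 members stay between -0.02 and 0.03 in every library, the complex I core subunits lie above 0.06 in the control libraries alone, and the cytosolic ribosomal proteins are lowest in the controls and highest in KO-2 replicate 1.

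Together the members held a similar share of reads everywhere: 0.892% and 0.886% of the control libraries, 0.851% and 0.855% of KO-1, and 0.895% and 0.879% of KO-2. Per length, the subunits of complex IV had the highest median level at 156 CPM per kilobase, followed by complex III at 125, complex V at 113, complex II at 68.9 and complex I at 64.8, and the assembly factors were lowest at 13.1. After ATP5F1B the most abundant were ATP5F1A at 341, COX4I1 at 330, UQCRH at 318 and COX7C at 274 CPM per kilobase. The order rests on transcript lengths from GENCODE v29, which may not be the annotation of the counting.

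At the low end, 7 coding members had a mean log2 CPM below 2: NDUFA7, COX7A1, COX20, NDUFV2, NDUFA13, COX16 and UQCRHL. In 5 of the 7, at least 25% of the exon bases overlap another annotated gene, namely 82.3% for COX20 (with HNRNPU on the opposite strand), 78.7% for NDUFA7, 41.1% for NDUFV2, 39.1% for COX16 and 32.9% for NDUFA13. NDUFV2 and NDUFA13 are obligate parts of complex I, yet they lay at 1.12 and 2.20 CPM per kilobase beside the complex median of 64.8. COX7A1, a form of a complex IV subunit typical of heart and muscle, had no overlap and 3 to 17 reads per library. Whether overlap lowered these counts was not tested. Of all 102 coding members, 20 share at least 25% of their exon bases with another gene on either strand, 11 on the same strand, and 50 have at least 1 pseudogene named after them.

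Messages of the risen members were shorter at the median than those of the fallen members. The median mRNA length was 620.5 bases for the 12 that rose (407 to 2130) and 1452 bases for the 8 that fell (539 to 2394), beside 792.5 for all tested members and 2599 for all genes tested with a length. Among the 37 members of up to 700 bases, 8 rose and 3 fell at a median of 0.06, and among the 19 of over 1500 to 2500 bases, 1 rose and 3 fell at a median of -0.07. Among genes that are no members, 56 rose and 16 fell of 253 in the shorter range (median 0.09), and 489 rose and 599 fell of 3628 in the longer (median -0.03). Across members the Spearman correlation of length and fold change was -0.25 (n = 100), and across all genes with a length it was 0.02 (n = 12537). These are descriptions across genes measured in the same libraries, and the part of length in the calls was not tested.

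**Figure D5:**
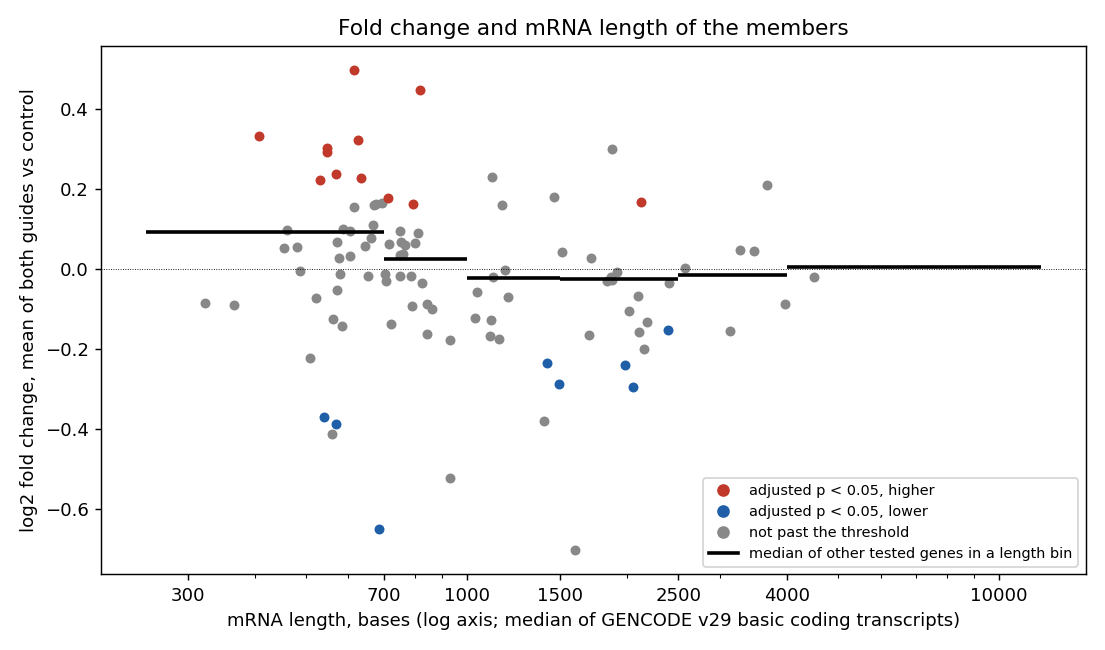
Log2 fold change, mean of both guides against control, against mRNA length on a log axis for the 100 tested members. Points are genes, red and blue mark members that rose and fell at an adjusted p below 0.05, and black lines are medians of the other genes tested in each length range. Risen members lie mostly below 1000 bases, where the other genes also have medians above 0, and COX6B1, ATP5MC1 and NDUFB8 are fallen members of similar length.

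Other genes of the pathway were read from the same fits. Of 39 tested carriers and assembly genes outside the naming rule 1 rose and 9 fell (25.6%, beside 29.6% of all genes tested, median -0.04). The split moved with scaling: 4 and 7 with library medians set equal, 1 and 10 with scaling to the read totals, and 3 and 8 after quantile normalization. ATPAF1, a chaperone of the ATP synthase head, changed by -0.50, TIMMDC1, a complex I assembly factor, by -0.48, DMAC2L, an ATP synthase coupling factor, by -0.54, and DMAC2, a complex I membrane arm assembly factor, by 0.30 (limma adjusted p = 0.00043, 0.0018, 0.011 and 0.0066). Of 21 regulators of mitochondrial gene expression 3 rose and 2 fell (23.8%, median -0.02). MYC and PPARGC1A, activators of mitochondrial genes, rose by 0.26 and 0.23, and the nuclear receptor gene ESRRA and GABPB2, a partner of GABPA, changed by -0.52 and -0.37 (limma adjusted p = 0.014, 0.025, 0.029 and 0.013).

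Enzymes upstream of the respiratory chain had calls in both directions. Of 25 genes of the TCA cycle and pyruvate dehydrogenase 3 rose and 7 fell, with a median of -0.04. That is 40% called, beside 29.6% of all genes tested (14.6% higher, 14.9% lower). MDH2, DLAT and DLST, which encode malate dehydrogenase and core parts of the pyruvate and oxoglutarate dehydrogenase complexes, changed by -0.32, -0.31 and -0.27 (limma adjusted p = 0.0014, 0.0017 and 0.0035). Of 37 import, cristae and outer membrane genes 6 rose and 6 fell (32.4%, near the share of all genes, median -0.04). CHCHD3, a cristae junction protein, changed by -0.996 ± 0.08 (SE; limma adjusted p = 1.6e-05), lower than any tested member, and the ADP/ATP carrier genes SLC25A6 and SLC25A4 changed by 0.47 and -0.34 (limma adjusted p = 2.9e-05 and 0.0013).

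Ribosomal protein genes gave a scale for the members. Of 76 mitochondrial ribosomal proteins 7 rose and 7 fell (18.4%, median 0.03), a count as mixed as that of the members. Of 70 cytosolic ribosomal proteins 37 rose and 1 (RPL27) fell (54.3%, beside 29.6% of all genes tested, median 0.18). The cytosolic ribosomal count was 27 to 48 higher and 1 to 3 lower over the scalings run, while the medians of the other lists changed sign with scaling. No set test was made on any of these lists.

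As to the identity of the cells, the epithelial genes EPCAM, KRT8 and KRT18 had mean log2 CPM of 8.23, 9.78 and 8.82. The summed epithelial markers (6 of 6 in the table) ranged from 1765 to 1803 CPM in control, 2207 to 2216 in KO-1 and 2171 to 2198 in KO-2. Leukocyte markers (2 of 6 in the table) summed to 15.5 to 16.8 CPM in control, 19.1 to 20.9 in KO-1 and 16.5 to 16.6 in KO-2. For endothelial markers (3 of 3) the sums were 21.4 to 23.2, 18.6 to 19.7 and 18.3 to 19.6 in the same order, and for fibroblast markers (6 of 7) 417 to 434, 481 to 488 and 429 to 447. Of the 3 receptor genes listed as low in triple-negative cells (ESR1, PGR and ERBB2), only 1 had a row. It was at 194 to 199, 163 to 164 and 177 to 188 CPM in the same order. That is above the leukocyte and endothelial sums, so this receptor message was not low here. None of the 3 erythroid markers was among the rows. Their part in the members' values was not tested. In bulk RNA, fewer cells of a kind and less RNA per cell cannot be told apart.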

How the data were processed

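The authors deposited log2 CPM, log2 read counts scaled to library size, for 14788 genes in 6 libraries, and a table of their own comparisons with log2 fold changes, p-values and false discovery rates. Per the submitters' processing notes, fastp, STAR 2.7, featureCounts (Subread 2.0), edgeR and hg38 were used; annotation, strand setting and gene filter were not stated. The deposited values share a minimum of -3.29 (a prior of 0.102 CPM). Removing it gave whole reads for 100% of values (tolerance 0.01 reads), 13222933 to 25785055 per library, so that 1 read was worth 0.0383 to 0.0767 CPM, and the scaling matched TMM factors computed from those reads. Chi-square per degree of freedom between replicates was 3.06 to 8.66, so no libraries were merged.

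Genes with log2 CPM of at least 0 in at least 2 libraries were kept (13765; 1023 removed). limma 3.58.1 in R 4.3.3 fitted group means over all 6 libraries with a mean-variance trend (3 residual and 8.02 prior degrees of freedom), and p-values were Benjamini-Hochberg adjusted over all genes tested and called below 0.05, with no minimum fold. The prior stays inside the log, so fold changes of low genes are understated. Errors after ± are limma standard errors; no interval covers more than the spread between libraries. The fit was tested on simulated data with the same dispersion in every gene and group and the same change with both guides. That setting does not cover the wider spread between the KO-2 libraries. Members and lists were chosen with earlier results of these data known. Values in every library are given for the highest and lowest member of each complex's subunits and of the assembly factors and other members (mean log2 CPM at least 1) and for the 5 with the smallest p; other members and up to 4 genes per other list (smallest p) are given by fold change, and further library values were chosen after they were seen. Coordinates, overlaps and lengths come from GENCODE v29 (GRCh38), promoters from RefSeq (GRCh38.p14). Mitochondrially encoded genes were not analysed here. Some genes that the naming rule took are not reported here.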

Additional observations from a re-analysis of the deposited data

Results flagged for a closer look

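Of the genes named beside the members, CHCHD3 passed the limma test of the difference between the guides, which none of the members did, while UQCRC1 passed in the authors' deposited table (0.26, false discovery rate 0.049). It was higher in KO-2 than in KO-1 by 0.57 ± 0.09 (SE; limma adjusted p = 0.016). CHCHD3 lay below control with each guide, at a log2 fold change of -1.28 in KO-1 and -0.71 in KO-2.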

How the results depend on the processing

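For both guides against control (20 members called), the count was 5 without the mean-variance trend (16% of all genes), 8 (15.4%) at an adjusted p below 0.01, and 3 to 40 with a replicate left out. For KO-1 (17 called) it was 6 without the trend (17% of all genes), 36 with only the groups compared (45.5%), 7 below 0.01 (16.2%), and 6 to 37 with a replicate left out. For KO-2 (13 called) it was 0 without the trend (1.18% of all genes), 6 with only the groups compared (9.96%), 1 below 0.01 (5.51%), and 0 to 41 with a replicate left out. For KO-2 against KO-1 (0 called, 14 at an unadjusted p below 0.05) it was 0 in each other setting run and 0 to 31 with a replicate left out. A fit with fewer libraries did not always have wider errors. For NDUFAF8, both guides against control, the SE was 0.063 in the main fit. It was 0.095 once control replicate 1 was dropped, 0.075 on dropping KO-1 replicate 1, and 0.054 on dropping KO-2 replicate 1. Why the counts moved was not tested. The scaling, filter and pseudocount alternatives kept the counts within 1.5 times, and none of the members recomputed one by one (those the naming rule took) reversed its sign; other small fold changes were not followed. Replicate numbers mark no shared source in the labels, and same-numbered deviations correlated at -0.05, 0.04 and -0.04; with the replicate block the counts were 17, 15, 10 and 0. edgeR and DESeq2 were not run on the recovered reads. limma voom was run on those reads in their place, chosen after the data were seen. Depth limits the 7 members below a mean log2 CPM of 2.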
